A study of Drosophila melanogaster with 2 samples.

Results

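The genes described here encode the proteins of the mitochondrial ribosome in Drosophila melanogaster, and the measurement is where a tagged protein, CG13287-eGFP, bound near their start sites in embryos. They were chosen by name, as the protein-coding genes whose symbol begins with mRpL (large subunit) or mRpS (small subunit) and a digit. No peak value enters this rule, but the set was chosen with earlier results of these data known. The rule found 73 of 13968 protein-coding genes, 47 for the large subunit and 26 for the small one, and RefSeq names all 73 as mitochondrial ribosomal proteins. The study held 1 group of 2 biological replicates, whole embryos aged 6 to 24 h of a line that carries the CG13287-eGFP transgene, precipitated with an antibody against GFP after sonication to 200 to 800 bp. There was no other genotype, age or treatment, so no test over samples was possible and every comparison with other genes below is a description. The fusion was read out in all tissues of the embryo at once, so a peak does not say in which cells the protein was bound. Neither the driver nor the insertion site of the transgene is stated in the labels.

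Mitochondrial ribosomes make the few membrane subunits of the respiratory chain and ATP synthase that the mitochondrial genome encodes. Their RNAs come from that genome, while all of their proteins are encoded in the nucleus, made in the cytosol and imported, so that many scattered nuclear genes must supply each ribosome. The small subunit decodes the messenger RNA and the large subunit holds the peptidyl transferase centre. Part of the proteins have relatives in bacterial ribosomes and the rest were added in mitochondria. No expression values were measured, and the set of all protein-coding genes used below as background includes genes that may be silent in embryos.

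The deposited data were peak lists, not reads, so the depth of the libraries is unknown. Filtered lists, cut by the authors at an irreproducible discovery rate (IDR) of 0.01, held 5955 peaks on the chromosome arms for both replicates together (conservative list), 7026 in a more permissive list for both (optimal), 3997 for replicate 1 and 7340 for replicate 2. Longer ranked lists held 24422 to 36753 peaks. A gene is called bound when the summit of a peak lies within 500 bp of one of its annotated transcription start sites (TSSs). Its signal is the highest value among such peaks, in the units of the peak caller. Over the 42 genes with a value in all 3, the conservative signal divided by the sum of both single-replicate signals had a median of 0.9931, so the conservative values run close to that sum and are not an average.

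Sequences just upstream of the start sites are shown for 7 of the 12 most strongly bound genes, taken from those with a whole motif in the stretch, so the choice itself favours promoters with a motif. Of all 12, 10 had a DRE within 50 bp of the TSS, the exceptions being mRpL34 and mRpL53. The share was 33.9% over the 59 bound mitochondrial ribosomal protein genes and 20.0% over all bound genes. The 12 were picked by signal, which was higher with a DRE over all bound genes too, as given below. Their share is thus not compared with genes of equal signal. The DRE of these 10 was not always at the summit. It lay 322 bp from it at mRpL17, 294 bp at mRpL33, 182 bp at mRpL39, 112 bp at mRpS23 and 108 bp at mRpL32. At the others the nearest such DRE lay 2 to 48 bp from the summit. Each sequence is the gene's strand, 5′ to 3′, ending at the base before the TSS, on Release 6 of the genome (dm6). The stretch is shorter where an exon of a neighbour begins. Capitals mark the DNA replication-related element (DRE), which is ATCGAT with A or T on both sides and is bound by the zinc finger factor DREF, the E-box CAGCTG, a common core promoter motif in flies, and the core of the promoter motif Ohler 7, CANCNCTA. The bound genes come first.
mRpL4 (chr2L:16329133-16329232, minus strand): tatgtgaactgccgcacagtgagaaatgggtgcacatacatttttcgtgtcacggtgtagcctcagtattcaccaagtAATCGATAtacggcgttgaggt
mRpL39 (chr3L:14999667-14999766, minus strand): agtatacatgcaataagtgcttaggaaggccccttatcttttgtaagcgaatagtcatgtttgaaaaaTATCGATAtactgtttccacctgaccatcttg
mRpL10 (chr2L:203679-203778, plus strand): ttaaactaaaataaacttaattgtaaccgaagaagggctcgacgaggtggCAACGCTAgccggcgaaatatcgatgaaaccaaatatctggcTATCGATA
mRpL32 (chr3R:31252772-31252871, plus strand): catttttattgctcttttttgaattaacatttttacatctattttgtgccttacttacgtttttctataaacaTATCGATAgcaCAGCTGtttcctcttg
mRpL33 (chrX:4322232-4322331, minus strand): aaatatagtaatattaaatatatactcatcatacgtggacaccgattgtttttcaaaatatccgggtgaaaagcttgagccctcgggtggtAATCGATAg
mRpS23 (chr2L:13835073-13835172, minus strand): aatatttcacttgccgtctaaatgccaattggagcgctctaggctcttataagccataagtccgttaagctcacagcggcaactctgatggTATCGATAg
mRpS18C (chr3R:30423930-30423973, plus strand): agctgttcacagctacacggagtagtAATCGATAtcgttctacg
The next 3 belong to genes with no peak in any filtered list, and mRpL9 and mRpL36 have none of these motifs in the stretch shown.
mRpL47 (chr3R:9515909-9516006, minus strand): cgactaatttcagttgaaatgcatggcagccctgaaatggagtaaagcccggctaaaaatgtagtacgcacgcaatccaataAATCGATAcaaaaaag
mRpL9 (chr3R:15330638-15330737, plus strand): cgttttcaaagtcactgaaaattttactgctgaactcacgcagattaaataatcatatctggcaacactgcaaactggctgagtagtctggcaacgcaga
mRpL36 (chr3L:8125133-8125232, minus strand): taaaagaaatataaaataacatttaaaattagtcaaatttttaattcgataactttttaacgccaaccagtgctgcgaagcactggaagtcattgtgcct

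Most mitochondrial ribosomal protein genes were bound. In the conservative list 59 of the 73 had a summit within 500 bp (80.8%, exact 95% interval 69.9 to 89.1), against 39.8% of all protein-coding genes. The count was 64 in the optimal list against 43.7% of all genes, 42 in replicate 1 against 30.3% and 62 in replicate 2 against 44.9%. The share among these genes was thus above that of all genes in each filtered list, as the plot of bound genes per list shows. Intervals here and below are exact Clopper-Pearson intervals and cover counting error only.

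**Figure D1:**
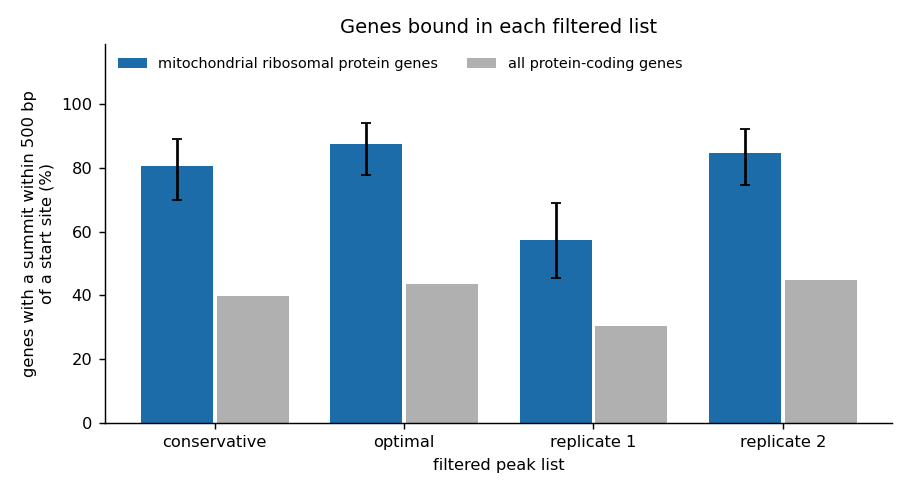
Share of genes with a summit within 500 bp of a start site (%) in each filtered peak list. Blue bars are the 73 mitochondrial ribosomal protein genes with exact 95% intervals and grey bars all 13968 protein-coding genes. In all 4 lists the blue bar is higher, at 57.5 to 87.7% against 30.3 to 44.9%.

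In the ranked lists, which include weak entries, 71 genes had a summit in the conservative ranking against 60.7% of all genes, 72 in the optimal ranking against 62.8%, 69 in that of replicate 1 against 58.0% and 73 in that of replicate 2 against 66.1%. Binding was spread over the arms that hold these genes. It reached 11 of 12 genes on 2L (against 36.8% of all protein-coding genes there), 11 of 12 on 2R (41.8%), 12 of 17 on 3L (39.1%), 16 of 21 on 3R (39.9%) and 9 of 11 on X (43.2%). Chromosomes 4 and Y hold none of the 73.

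Both subunits were bound. For the large subunit 40 of 47 genes were bound (85.1%, exact interval 71.7 to 93.8) and for the small subunit 19 of 26 (73.1%, exact interval 52.2 to 88.4). These intervals overlap, and no test of the difference between subunits was made. Of the 42 proteins numbered in the range of the bacterial ribosomal proteins 36 were bound (85.7%), and of the 31 with higher numbers, most of them added in mitochondria, 23 were (74.2%). The numbers are only a guide to ancestry, since in mammals the proteins of MRPL47 and MRPS24 have bacterial relatives.

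The signal at these bound genes was close to that of bound genes in general. Its median was 226.4 (quartiles 153.6 and 475.2) over the 59 genes, against 254.7 (153.0 and 513.5) over all 5565 bound protein-coding genes. Of the 59, 26 (44.1%) lay above the median of all bound genes, 12 in its top 25% and 14 in its bottom 25%. These promoters were thus bound more often than those of other genes without a higher signal. The large subunit genes had a median of 264.1 (84.88 to 1333) and the small subunit genes 177.6 (16.06 to 565.2).

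The large subunit held the strongest peaks. mRpL4 (FBgn0001995, 2L), whose bacterial relative lines the tunnel through which the new chain leaves, had a signal of 1333 in the conservative list, with 580.7 in replicate 1 and 751.9 in replicate 2. Its peak spans 16328860 to 16329433, with the summit at -47 bp from the TSS, and 98.5% of bound genes had a lower signal. mRpL39 (FBgn0036462, 3L), a mitochondrial addition, followed with 1081, from 519.8 and 559.3 in replicates 1 and 2, at 14999553 to 15000109. These 2 stood apart, since the next value was 874.2.

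That value belonged to mRpL42, with 377.2 in replicate 1 and 495.6 in replicate 2. mRpL10, which in bacteria anchors the stalk that recruits translation factors, had 767.3, with 257.4 and 497.5 in replicates 1 and 2. mRpL17, whose bacterial relative sits at the tunnel exit, had 758.8, with 262.9 and 442.1. In all 3 replicate 2 was higher.

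mRpL32 had 746.9, with 384.1 in replicate 1 and 376.0 in replicate 2, and was 1 of 2 genes where replicate 1 was higher. mRpL33 had 718.9 (313.5 and 410.9 in replicates 1 and 2) and mRpL53 688.5 (214.4 and 460.2). mRpL34 had 565.3 (268.3 and 294.5), at a summit at -227 bp that lay nearer to the start of Dg (157 bp). Its nearest summit, 28 bp from the TSS, had only 32.29. mRpL3, whose bacterial relative reaches towards the peptidyl transferase centre, had 524.2 (181.8 and 348.8). Together with 2 small subunit genes these are the 12 strongest. All 12 were present in both single-replicate lists.

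In the small subunit mRpS23 led with 565.2, from 216.1 in replicate 1 and 323.3 in replicate 2. mRpS18C, 1 of 3 fly relatives of a single bacterial protein, had 522.0, with 231.5 and 298.9. The other relatives, mRpS18A and mRpS18B, had 508.8 and 235.4, so that the 3 paralogous genes were all bound at separate loci. The summit of mRpS18A (-105 bp) was nearer to the start of CG31460 (25 bp). That of mRpS18C (-63 bp) was nearer to the start of CG15535 (18 bp). In mammals the products of MRPS18A and MRPS30 sit in the large subunit despite their names.

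**Figure D2:**
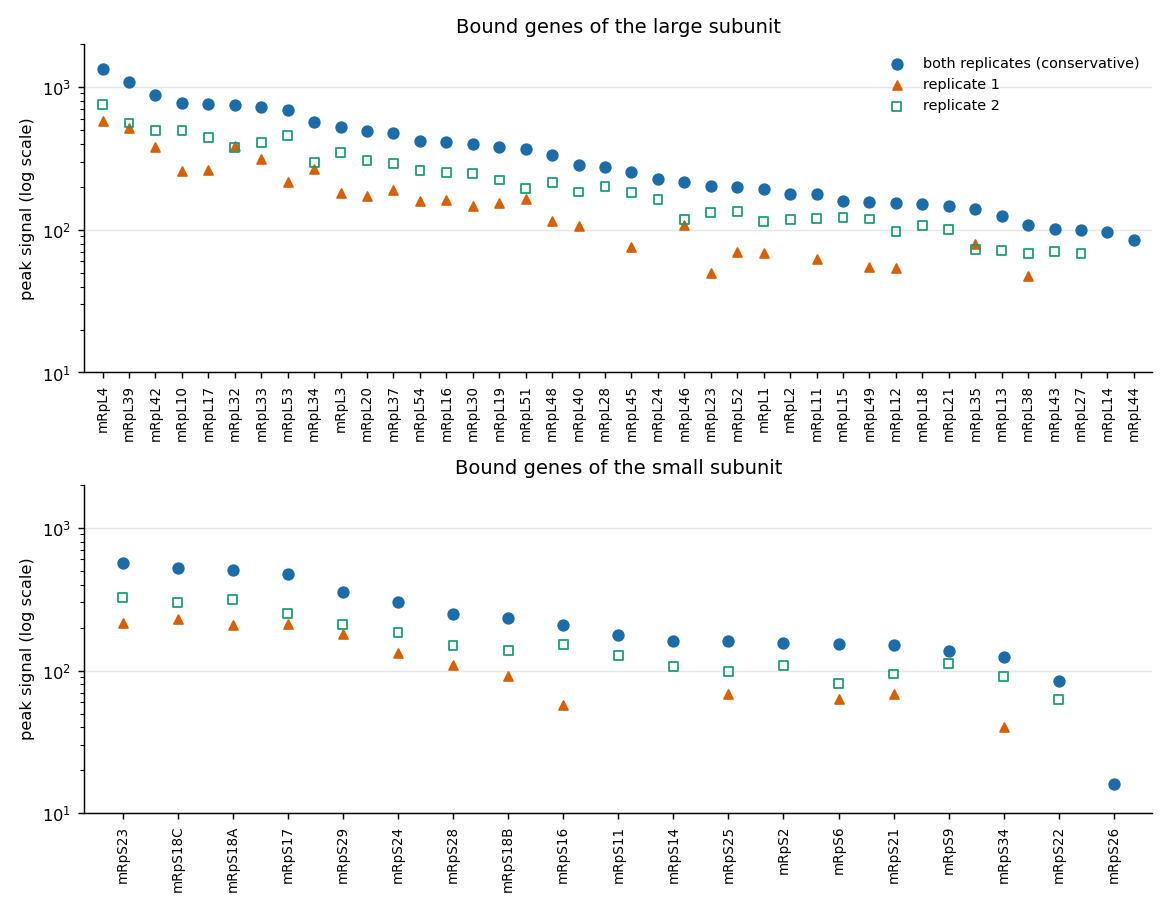
Peak signal on a log scale at each of the 59 bound genes, ordered by the conservative signal, for the large subunit (top) and the small subunit (bottom). Filled circles are the conservative list of both replicates, triangles replicate 1 and open squares replicate 2, with no marker where a gene is not in that list. Signals run from 1333 at mRpL4 down to 16.06 at mRpS26, and genes without a replicate 1 marker lie towards the weak end.

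At the weak end the calls were thin. mRpS26 had 16.06 and no peak in either single-replicate list. Its summit lay at -357 bp, 73 bp from the start of CG13698 and so nearer to that gene, and a peak of 116.6 lay at -561 bp. mRpS22 had 83.86, with 62.89 in replicate 2 and no filtered peak in replicate 1. mRpL44, whose mammalian relative has an RNase III fold, had 84.88 and mRpL14 95.69, both with no peak in either single-replicate list.

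Outside the conservative list, 7 genes appeared in another filtered list. mRpS10 had 143.8 in the optimal list and 117.7 in replicate 2, mRpL50 96.58 and 71.57, mRpS31 86.07 and 62.47, and mRpS33 58.74 and 47.49. mRpL22 was in the optimal list alone (89.56). mRpL41 was in the replicate 2 list alone (83.92), as was mRpL55 (11.06). No gene was in the replicate 1 list alone.

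The other 7 genes, mRpL9, mRpL36, mRpL47, mRpS5, mRpS7, mRpS30 and mRpS35, had summits in ranked lists alone. In the ranking that holds the conservative list, 6 of them had low signals, namely mRpL9 113.5, mRpL36 64.40, mRpS7 56.33, mRpS30 54.08, mRpS5 49.69 and mRpS35 26.91. None of these 6 reached the score of 830 that the filtered lists start from.

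mRpL47 (FBgn0014023, 3R) was the exception. Its entry at 9515670 to 9516226, with the summit at -41 bp, had a signal of 1399 in the ranking of both replicates, 578.0 in that of replicate 1 and 816.3 in that of replicate 2. In the ranking of both replicates and in that of replicate 2 this is more than at mRpL4, and in replicate 1 slightly less. The score was 1000, the highest possible, in all 4 rankings, yet the peak is in no filtered list. It was not alone in the genome, as 190 of 6145 entries with a score of 830 or more were left out of the conservative list. What removed them is not stated in the labels or the files. Of the 73 genes mRpL47 alone lost a peak in this way, and counting it would give 60 bound genes.

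The distance limit mattered for few genes. Among bound genes, the nearest summit lay farthest out at mRpS26, at 357 bp. The summit that gave mRpL11 its signal of 177.2 lay at -377 bp, 1 bp from HtrA2, with a nearer one at 176 bp. Just outside the limit lay the summits nearest to mRpL55 (536 bp, signal 400.3) and mRpL22 (537 bp, signal 36.16). They were 99 bp from the start of cdi and 38 bp from that of if. A peak of 799.7 lay at -696 bp from mRpL41, 66 bp from the start of CG8079. Within 200 bp 55 of the 73 genes were bound (75.3%) against 35.0% of all genes, and within 1000 bp 62 (84.9%) against 42.7%.

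Summits lay mostly a short way before the TSS. Their position had a median of -43 bp, with quartiles of -107 and -7 bp, against -60 bp, with quartiles of -133 and -14 bp, over all bound genes. Of the 59 genes 47 (79.7%) had their summit upstream, against 80.2%, and 40 (67.8%) had it within 100 bp, against 61.3%. In position, these genes were thus close to bound promoters in general. In 15 of the 59 genes 2 or more summits lay within the limit, and the share over all bound genes is not given here.

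The replicates ordered the genes alike but differed in how many they called. In all, 42 genes were in both single-replicate lists, 20 (27.4%) in that of replicate 2 alone and 11 in neither. Over all protein-coding genes 15.2% were in the replicate 2 list alone. As a share of the genes in the replicate 2 list, those in it alone were 32.3% (20 of 62), against 33.9% of all protein-coding genes in that list. Of the 20 genes 14 were in the conservative list, and 17 had an unfiltered entry in the replicate 1 ranking, with signals of 18.43 to 75.74. In replicate 2 these 20 had a median signal of 103.9, against 212.0 for the 42. The ranges overlapped, as the 20 reached 201.7 and the 42 went down to 68.57.

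Ranked over the 42 genes, replicate 1 and replicate 2 signals were correlated at a Spearman rho of 0.926, against 0.916 over the 4143 genes in both lists. These are correlations across genes of the same 2 libraries, given as a description. The ratio of replicate 2 to replicate 1 had a median of 1.513, against 1.439 over all such genes, and 40 of the 42 were above 1. It was largest at mRpS16 (2.675, with 57.17 in replicate 1 and 152.9 in replicate 2), mRpL23 (2.629) and mRpL45 (2.411). It was smallest at mRpL35 (0.9167, with 79.31 in replicate 1 and 72.70 in replicate 2), mRpL32 (0.9789) and mRpL39 (1.076). A deeper library and stronger binding in replicate 2 cannot be told apart here.

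**Figure D3:**
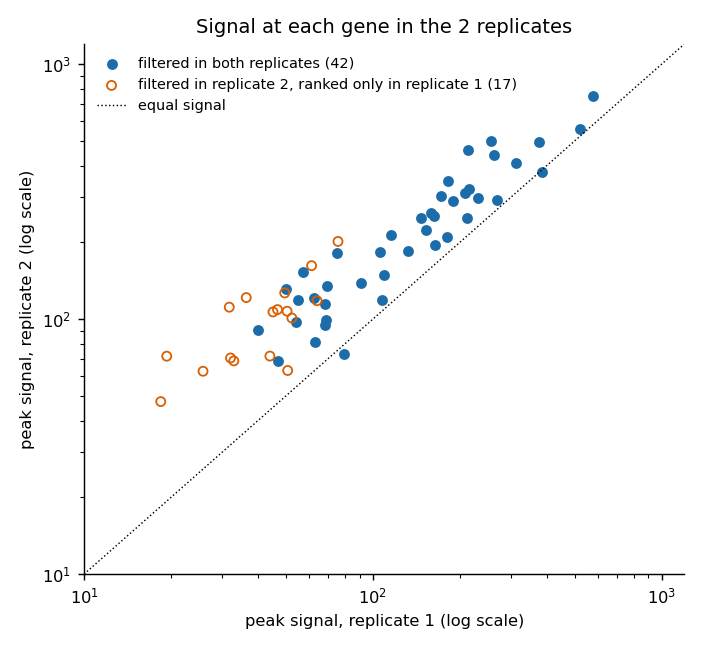
Peak signal in replicate 1 (horizontal, log scale) and replicate 2 (vertical, log scale) at mitochondrial ribosomal protein genes. Filled points are the 42 genes in both filtered lists, open points the 17 genes filtered in replicate 2 and present only in the ranking of replicate 1, and the dotted line marks equal signal. Nearly all points lie above the line, and the open points lie at the weak end of replicate 1.

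Many of these genes share their promoter region with a neighbour. A head-to-head neighbour, with a start on the other strand within 500 bp upstream, was present at 53 of the 73 genes (72.6%), against 26.4% of all protein-coding genes. Between the 2 starts lay a median of 264 bp, against 245 bp over all such genes. No summit was shared by a pair of mitochondrial ribosomal protein genes, so each of the 59 had a peak of its own within the set. Their partners had varied functions.

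The summit of mRpL39 lay at -210 bp, 75 bp from the start of Prosbeta2, a proteasome subunit. That of mRpL42 was at -28 bp, 108 bp from PIG-N, an enzyme of GPI anchor synthesis. That of mRpL17 was at -323 bp, 76 bp from Tudor-SN, a nuclease with Tudor and staphylococcal nuclease domains. Of these 3 strong peaks, those of mRpL39 and mRpL17 were thus nearer to the partner. The summit nearest to the mRpL17 start, at 79 bp, had a signal of 26.56.

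The summit of mRpL32 was at -131 bp, 133 bp from qless, which acts in coenzyme Q synthesis. That of mRpL33 was at -299 bp, 96 bp from norpA, the phospholipase C of phototransduction. That of mRpL53 was at -34 bp, 136 bp from AGO1, the Argonaute protein of the miRNA pathway. It was also 34 bp from CG33155 on the same strand, as near as to mRpL53. In all, 45 of 59 summits (76.3%) lay within 500 bp of another protein-coding gene's start, against 53.4% over bound genes. The other gene was the nearer one in 16 cases (27.1%), against 26.0%.

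Genes with and without such a neighbour were both bound at a high share. Among head-to-head genes 45 of 53 were bound (84.9%), against 72.4% of all head-to-head genes. Among the rest 14 of 20 were bound (70.0%), against 28.2%. The share was thus above that of all genes in both arrangements, with the wider gap at the 20 genes without a head-to-head neighbour. mRpL4 and mRpL10 belong to these 20 genes. With summits dropped where another gene's start was nearer, 46 of the 73 genes remained bound. The matching share of all protein-coding genes is not given here. Another gene was nearer in 27.1% of these bound genes and in 26.0% of all bound genes, so that share would fall too.

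**Figure D4:**
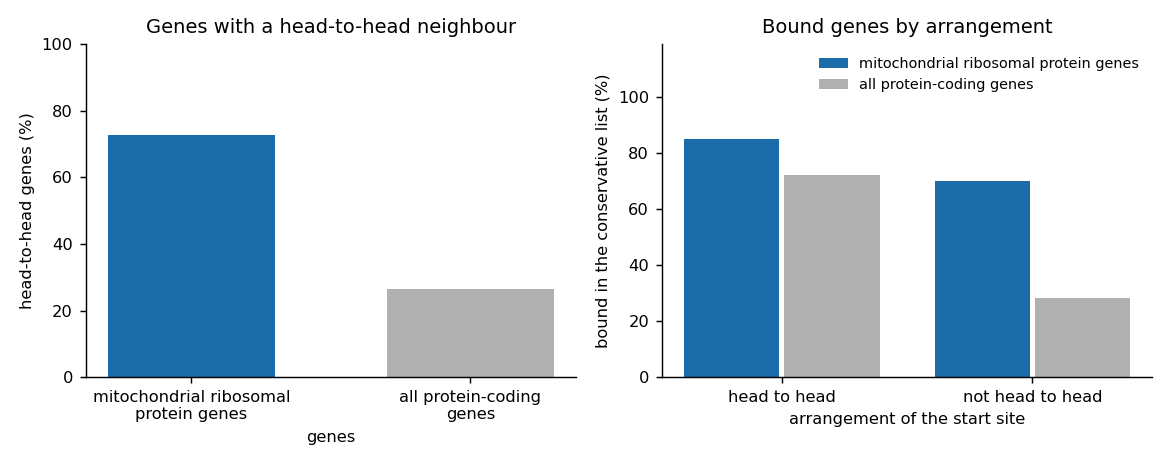
Left, the share of genes with a head-to-head neighbour within 500 bp (%). Right, the share bound in the conservative list (%) for genes with and without such a neighbour, with mitochondrial ribosomal protein genes in blue and all protein-coding genes in grey. The blue bars stand at 72.6% against 26.4% (left) and at 84.9% against 72.4% and 70.0% against 28.2% (right).

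The start sites of these genes were rich in an E-box. The E-box CAGCTG stood within 50 bp of the TSS in 35 of the 73 genes (47.9%, exact interval 36.1 to 60.0), against 9.33% of all protein-coding genes and 14.9% of all bound ones. Bound and unbound members both carried it, at 30 of 59 (50.8%) and 5 of 14 (35.7%). Its share was 49.1% in genes with a head-to-head neighbour, against 14.6% of all such genes, and 45.0% in those without, against 7.45%. In windows of 25 and 100 bp on either side the shares were 35.6 and 52.1%, against 5.48 and 13.8% of all genes.

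The E-boxes clustered around and after the start. Over 36 sites the first base had a median position of 9 bp after the TSS (quartiles -9 and 18.5), and 23 sites (63.9%) began at or after it, in the transcribed region, against 45.1% of the sites of all genes. The sites of 10 bound genes are shown, each with 10 bases on either side and in order of the gene's signal, from mRpL17 (758.8) to mRpL45 (252.0), because they let the surroundings be compared. Of the stronger carriers mRpL53, mRpS17 and mRpL54 are not shown.
mRpL17 (chr3L:264782-264807, plus strand): aaatggtcgcCAGCTGttcggcgaat
mRpL32 (chr3R:31252846-31252871, plus strand): atcgatagcaCAGCTGtttcctcttg
mRpL33 (chrX:4322209-4322234, minus strand): taggcgcagtCAGCTGttcttcgttc
mRpS18C (chr3R:30423919-30423944, plus strand): cactgccgaaCAGCTGttcacagcta
mRpL19 (chr3R:8674107-8674132, plus strand): tcggtgctgcCAGCTGattatagtgc
mRpL48 (chr2L:1710473-1710498, plus strand): tgcacgccatCAGCTGgtgatataac
mRpS24 (chr3R:24163510-24163535, minus strand): tcacgtcaatCAGCTGttgctggacg
mRpL40 (chr3R:11407931-11407956, plus strand): gcaacaaaaaCAGCTGttcgtacatt
mRpL28 (chr2L:4973981-4974006, plus strand): cacatacgaaCAGCTGttttttccaa
mRpL45 (chr3R:22618473-22618498, plus strand): tcacgtttgcCAGCTGgtcgcgttag
The palindrome was often followed by TT on the gene's strand. This held for 22 of 36 sites (61.1%), against 29.1% of the 1389 sites of all genes, and CAGCTGTT on either strand for 25 of 36 (69.4%), against 46.9%. These extra bases were chosen for counting after the sites had been seen. A match is a run of letters, and which factor binds it was not measured.

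The DRE was also more frequent at these start sites than at those of all genes. It stood within 50 bp of the TSS in 21 of 73 genes (28.8%), against 9.18% of all genes and 20.0% of all bound ones. The 23 sites had a median position of -10 bp and 3 of them began at or after the TSS, among them 1 of the 2 at mRpL4 and the 1 at mRpL12. Of the 21 genes 20 were bound, the exception being mRpL47. Both motifs together were found at 11 genes (15.1%), against 1.34% of all genes. The DRE came before the E-box in 9 of the 11 and after it in mRpS18C and mRpS28.

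**Figure D5:**
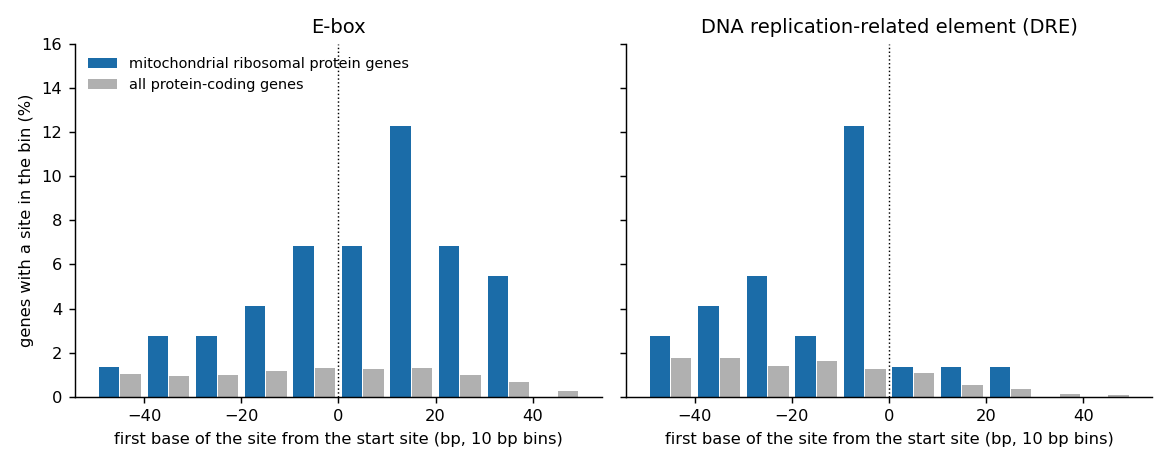
Share of genes (%) with an E-box (left) or a DRE (right) whose first base falls in each 10 bp bin around the start site, on the gene's strand. Blue bars are the 73 mitochondrial ribosomal protein genes, grey bars all 13968 protein-coding genes, and the dotted line marks the start site. The E-box is highest from 10 to 20 bp after the start (12.3% against 1.30%) and the DRE in the 10 bp before it (12.3% against 1.25%).

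Signals were higher where the start site held a DRE. Bound genes with a DRE and no E-box at the start had a median signal of 544.7 (10 genes, 153.6 to 1333), against 496.6 over all such bound genes. Those with both motifs had 428.8 (10 genes), against 397.6. Those with an E-box and no DRE had 189.0 (20 genes, 101.7 to 688.5), against 209.0, and those with neither 158.7 (19 genes), against 214.8. In both sets of genes the classes with a DRE were thus the stronger ones.

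The share bound varied with the motifs too. It was 10 of 10 with the DRE alone, 10 of 11 with both, 20 of 24 (83.3%) with the E-box alone and 19 of 28 (67.9%) with neither. Over all protein-coding genes the shares were 85.6%, 94.7%, 58.6% and 32.8%. With neither motif the share bound was thus also higher among mitochondrial ribosomal protein genes.

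At the summits themselves the picture was that of other bound promoters for the DRE. In the 101 bp around the summit, 13 of 59 bound genes had a DRE (22.0%, exact interval 12.3 to 34.7), against 24.3% of all bound genes. They were mRpL3, mRpL4, mRpL10, mRpL12, mRpL33, mRpL40, mRpL42, mRpS17, mRpS18B, mRpS18C, mRpS25, mRpS28 and mRpS29, the fly relative of the mammalian GTP-binding protein DAP3. Their median signal was 478.1, against 196.6 at the other 46, while over all bound genes the medians were 459.2 and 206.7.

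The E-box was found at the summit of 16 of 59 genes (27.1%, exact interval 16.4 to 40.3), against 11.2% of all bound genes. The share moved with the window, to 10.2% against 5.59% within 25 bp of the summit and to 47.5% against 19.7% within 100 bp. Median signals with and without it in the 101 bp window were 226.0 and 226.4. The GAGA motif GAGAG stood at 2 summits (3.39%, against 10.9%), the M1BP site GGTCACACT at 1 (1.69%, against 4.60%) and the Ohler 7 core at 7 (11.9%, against 11.3%). The BEAF-32 core CGATA, which overlaps most forms of the DRE, stood at 45.8% of summits against 48.9%, and TATAAA at 15.3% against 14.4%. All motifs were searched on both strands. At the start sites of all 73 genes the M1BP site stood in 8 (11.0%, exact interval 4.85 to 20.5, against 4.36% of all genes). Among bound genes alone the share was 8.47%, close to the 7.80% of all bound protein-coding genes.

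Other genes of mitochondrial translation were bound to differing extents. The 2 mitoribosomal proteins outside the naming rule, tko and bonsai, were bound with signals of 878.9 and 353.0. All 9 translation factor genes were bound, led by mRF1, a release factor (1451, with 592.2 in replicate 1 and 846.7 in replicate 2), mEFTs (610.1), mEFG1 (504.4) and mIF3 (399.0). Of 15 mitochondrial aminoacyl-tRNA synthetase genes, which charge the tRNAs, 10 were bound (66.7%), led by AspRS-m (560.5), PheRS-m (302.6), LeuRS-m (248.7) and ArgRS-m (218.3). AsnRS-m, GluRS-m, IleRS-m, MetRS-m and TrpRS-m were not bound in the conservative list.

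In mitochondrial transcription and RNA handling 6 of 7 genes were bound, with mTerf5 at 810.7, bsf at 780.5, mtTFB2 at 247.7 and TFAM at 184.4, and mTerf3 not bound. In mitochondrial DNA replication 3 of 4 were, with mtSSB at 3000, PolG2 at 615.8 and mtDNA-helicase at 219.0, and PolG1 not bound. The nuclear genes for subunits of oxidative phosphorylation were bound in 51 of 86 cases (59.3%, median signal 210.3). The 86 were picked by symbol and include paralogs whose symbol has an added L, such as COX4L, ND-20L and UQCR-14L. Of these paralogs only ATPsynepsilonL (133.9) was bound, which lowers the share. Genes of the cytosolic ribosome were bound in 60 of 92 cases (65.2%, median signal 339.5). These 92 were picked by symbol too and include paralogs. Of these RpL10Aa, RpL22-like and RpL37-2 were not bound, while RpL7-like (331.1) and RpL24-like (328.0) were. RpL13A had 1181 in the ranking that holds the conservative list but no filtered peak, and counts as not bound. In the conservative list, cytosolic ribosomal protein genes were thus bound less often than mitochondrial ones, and those bound had the higher median. The gap in the share bound depended on the list. In replicate 1 it nearly vanished, at 56.5% of cytosolic against 57.5% of mitochondrial ribosomal protein genes. In replicate 2 the shares were 79.3% and 84.9%. In the optimal list 69 of 92 cytosolic and 64 of 73 mitochondrial ones were bound. No test of these differences was made.

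The E-box at the start site was present in 5 of 9 translation factor genes, 7 of 15 synthetase genes (46.7%) and 3 of 7 genes of transcription and RNA handling, and in 0 of 4 genes of mitochondrial DNA replication. Among oxidative phosphorylation genes, with the paralogs of that list included, it stood in 16 of 86 (18.6%), all of them bound. Among cytosolic ribosomal protein genes, again with paralogs included, it stood in 7 of 92 (7.61%). The 73 mitochondrial ribosomal protein genes, at 47.9%, thus had a share nearer to those of the translation factor and synthetase genes than to that of the cytosolic ribosome.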

How the data were processed

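Chromatin immunoprecipitation and sequencing of CG13287-eGFP was deposited as peak lists on dm6, 4 filtered and 4 ranked. Per the labels' listing, all derive from alignments of the replicates. Aligner, peak caller and control scaling: not given in the sources used here. As deposited, the signal is the peak caller's value and the score is the scaled IDR, capped at 1000 and at least 830 in filtered lists. Another 16 columns of the ranked lists of both replicates, which hold per-replicate values, were not used because their names show no sample.

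Summits (start plus offset) were set against TSSs of all transcripts in the Ensembl BDGP6.54 annotation (release 115) and Release 6 of the genome with Python 3.11.15, pandas 2.3.3, numpy 2.4.6 and scipy 1.17.1. Figures were drawn with matplotlib 3.10.9. Motifs were counted on both strands within 50 bp of a summit or of the 5′-most TSS. The counting functions were tested on simulated data. Depth is unknown, and no test was made.

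Genes are named as follows: the 12 strongest and 4 weakest bound members, all members outside the conservative list, the 3 largest and 3 smallest replicate ratios, summits near the distance limit, members with a DRE at the summit, 6 head-to-head pairs and up to 4 genes of each mitochondrial list. Sequences are shown for strong members with a whole motif upstream and E-box sites for the 10 strongest carriers, both leaving out genes on 2R. mRpS18A, mRpS18B and some neighbours at least as near to a summit as the member were named after their values were seen. So were RpL13A and the paralogs of the oxidative phosphorylation and cytosolic ribosomal protein lists. The members, gene lists and motifs were chosen with earlier results of these data known.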

Additional observations from a re-analysis of the deposited data

How the results depend on the processing

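Counted in the peaks above the median signal of the conservative list, 35 of the 73 genes were bound in place of 59. The share of all protein-coding genes at this cut is not given here, so the count stands without a background. For the 42 genes in both single-replicate lists the median signal was 360.6 in place of 226.4, as this choice keeps the stronger genes. With 1 replicate left out, the count of bound genes ran from 42 to 62 and the median summit position from -49.50 to -42.00 bp. The exact TATCGATA stood at 10.17% of summits (exact interval 3.82 to 20.8) in place of 22.03% for the DRE. Over all bound genes the shares were 15.5 and 24.3%. With 200 bp in place of 500 bp, 28 summits in place of 45 were shared with another gene. The other 23 of 28 alternatives for these results changed no count by over 1.5 times and no share beyond its interval. Of 41 alternatives for other motifs and gene lists 32 did the same. The E-box at the summit ran from 10.17 to 47.46% in windows of 25 and 100 bp on either side, in place of 27.1%, against 5.59 and 19.7% of all bound genes. Counting the ranked peaks that reach the score minimum (60 genes) and the wider and narrower E-box windows were added after seeing the data. No paired analysis was possible because there was 1 group. Limits are the unknown depth, the missing control values, the 2 libraries and the many promoters shared by neighbours.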
